A study of Mus musculus with 6 samples.

Results

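Aim2 and 5 further genes of the interferon-inducible p200 family (Ifi203, Ifi204, Ifi207, Ifi211 and Mndal) were followed in microglia, the resident macrophages of the brain, after demyelination of the corpus callosum. The 6 genes were chosen by symbol, and all 6 had a row among the 24984 genes of the count table. Microglia came from male C57BL/6J mice, aged 10 weeks, in which that tract had received a stereotaxic injection of 2 µl of 1% lysolecithin (LPC), a detergent-like lipid toxic to myelin. One group was taken 10 days and the other 3 days after the injection, with 3 mice per time point and 1 library per mouse as the design text gives it. Both groups carried the LPC lesion and no other treatment or allele. Uninjured or vehicle-injected animals were not analysed here, so every comparison sets the late lesion against the early one. Cells were sorted as live CD11b positive, Ly6G negative, CD3 negative and CD45 low, and their polyadenylated RNA was amplified before sequencing.

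The p200 family, also called the PYHIN family, consists of proteins that join a pyrin domain, which binds other pyrin domains, to a HIN domain, which binds DNA, although some members lack one of them. AIM2 binds double-stranded DNA in the cytosol and recruits the adaptor ASC, which activates caspase-1 and leads to release of interleukin-1β and interleukin-18 and to pyroptosis. Most other members sit in the nucleus, act on transcription or on the interferon response to DNA, and are induced by interferon in macrophages. The genes lie side by side in 1 cluster that differs between mouse strains.

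In the mouse genome (GRCm38, GENCODE M21) the 12 p200 genes with counts lie on chromosome 1 between 173350879 and 174031810, a stretch of 680932 bp with 21 annotated genes. Aim2 (ENSMUSG00000037860) spans 173350879 to 173466040 on the plus strand at one end. The other 5 genes are on the minus strand: Ifi207 (ENSMUSG00000073490) at 173723427 to 173741747, Ifi204 (ENSMUSG00000073489) at 173747293 to 173766943, Mndal (ENSMUSG00000090272) at 173849126 to 173942491, Ifi211 (ENSMUSG00000026536) at 173896345 to 173913046 and Ifi203 (ENSMUSG00000039997) at 173920407 to 173942672. Ifi211 lies wholly within the span of Mndal, and Ifi203 and Mndal share 37 bp of exon.

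The sequence before the start site is shown because Aim2 and most of its relatives differ there. The RefSeq promoter table (GRCm38.p6) held windows for 5 of the 6 genes, with none for Ifi204. These windows reached from 250 bases before to 50 after a start site, with 2 start sites for Ifi203 and for Mndal. They were searched on both strands for the core of the interferon-stimulated response element, GAAA and again GAAA with any 2 bases between them, which binds the interferon-activated factor ISGF3 and interferon regulatory factors. Of the 7 windows, 5 held it, in Ifi207, Ifi211, Mndal (both starts) and Ifi203 (1 of its starts), against 3.44% of all 32851 promoter windows. The Aim2 window did not hold these letters. Its nearest stretch, on the other strand 51 bases before the start, carried 7 of the 8 fixed letters, as 35.4% of all windows did at least. No member window held the interferon-γ activated site, TTCNNNGAA, present in 8.30% of windows, or the ETS-IRF form, GGAA and GAAA with any 2 bases between them, present in 2.72%. The RefSeq starts of Aim2 and Mndal lie inside their longer GENCODE spans, and exons of other GENCODE transcripts reach into both windows. The 120 bases before the start site, for Aim2 without the last 33, which such an exon covers, read 5′ to 3′ on the strand of the gene, with each core match in capitals:
Aim2, chr1:173420484-173420570, plus strand: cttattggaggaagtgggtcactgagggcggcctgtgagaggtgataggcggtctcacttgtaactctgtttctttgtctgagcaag
Ifi207, chr1:173741810-173741929, minus strand: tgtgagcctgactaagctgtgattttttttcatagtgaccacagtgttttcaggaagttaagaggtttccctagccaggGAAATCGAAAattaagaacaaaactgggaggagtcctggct
Ifi211, chr1:173913047-173913166, minus strand: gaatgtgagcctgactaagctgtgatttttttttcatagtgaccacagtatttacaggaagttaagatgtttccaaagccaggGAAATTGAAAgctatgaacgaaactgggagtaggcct

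The core lay 41 bases before the start of Ifi207, 37 before that of Ifi211, 36 before 1 start of Mndal and 35 before 1 start of Ifi203. The 40 bases around it are given for 4 other genes, to show how far the stretch is shared, with the core, or the altered core of Ifi209, in capitals:
Ifi203, chr1:173942503-173942542, minus strand: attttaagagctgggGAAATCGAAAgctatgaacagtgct
Ifi213, chr1:173599321-173599360, minus strand: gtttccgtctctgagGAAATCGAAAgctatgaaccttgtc
Ifi205, chr1:174031865-174031904, minus strand: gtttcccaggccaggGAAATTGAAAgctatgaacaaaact
Ifi209, chr1:173630765-173630804, plus strand: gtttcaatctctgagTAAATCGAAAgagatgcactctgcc
Mndal, whose 40 bases lie within a GENCODE exon, had the same letters as Ifi203, and each shared 27 of 40 bases with that of Ifi207, while Ifi211 shared 33 and Ifi205 shared 34. The exact core of Ifi207, with TC between the copies of GAAA, stood in 16 of the 32851 windows (0.0487%), and 7 of these 16 belonged to p200 genes. Ifi209, which is outside the 6 genes, had the same 10 bases of core with 1 substitution, G1T, counted from the first base of the core, and 22 of its 40 bases matched those of Ifi207. These letters describe the windows and were not tested for binding.

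LPC day 10 replicate 3 stood apart, and its value is given with each result. Library totals ran from 5890081 to 9021700 counts at day 10 and from 7005939 to 9212197 at day 3. Of the 10535 genes tested, 2697 (25.6%) peaked in LPC day 10 replicate 3, and 4365 (41.4%) were lower in it than in each of the other libraries. Levels are CPM, counts divided by library size after TMM scaling, which compares libraries by the bulk of their genes. The values of a group are listed in the order of replicates 1, 2 and 3. The TMM factor was 0.637 for that library and 0.906 to 1.46 for the others. All libraries differed from each other. Pearson's r of log2 CPM between any 2 of them ran from 0.549 to 0.732 over the genes tested. The 13 microglia markers summed to 10693 to 40011 CPM at day 10 and 18102 to 19748 CPM at day 3. The T and NK cell list, with 5 of 10 genes in the table, reached at most 0.0982 CPM. The neutrophil list, with 6 of 8 genes, reached 110.7 CPM in LPC day 3 replicate 3 and at most 0.269 elsewhere. In sorted bulk RNA, fewer cells with a transcript and less of it per cell cannot be told apart.

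In edgeR's quasi-likelihood test, 0 of the 6 genes passed a Benjamini-Hochberg adjusted p of 0.05 for day 10 against day 3. Over all genes tested 12 passed, or 0.114% (12 higher and 0 lower). The common biological coefficient of variation of the fit, the relative spread between replicates, was 1.11. With so wide a spread, a gene that was not called is not shown to be unchanged. The 6 genes differed from each other by library. Aim2 was highest in LPC day 10 replicate 3, as 25.6% of all genes tested were. The rest of the family was low there, in a library that was below each of the others for 41.4% of all genes tested. Of the other 5 genes, 4 were highest in LPC day 10 replicate 2, as 11.4% of all genes tested were. Ifi203 and Mndal had too few counts to be tested. Of the 4 tested genes, Aim2 and Ifi211 had an unadjusted p under 0.05, as did 646 (6.13%) of all genes tested. Ifi211 passed the filter on low counts mainly through its day 10 libraries, so this count says nothing on its own. The 4 tested genes had a positive log2 fold change, as did 49.9% of all genes tested. Without LPC day 10 replicate 3 the 5 then tested were positive, where 46.8% of all were. Nothing is read from these signs, since Ifi203, the gene added there, had 0 counts at day 3 and could only be positive, and Ifi211 passed the filter mainly through day 10. No tested member had all its day 10 libraries above all day 3 libraries, as 3.47% of genes had, or below them, as 4.97% had.

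**Figure D1:**
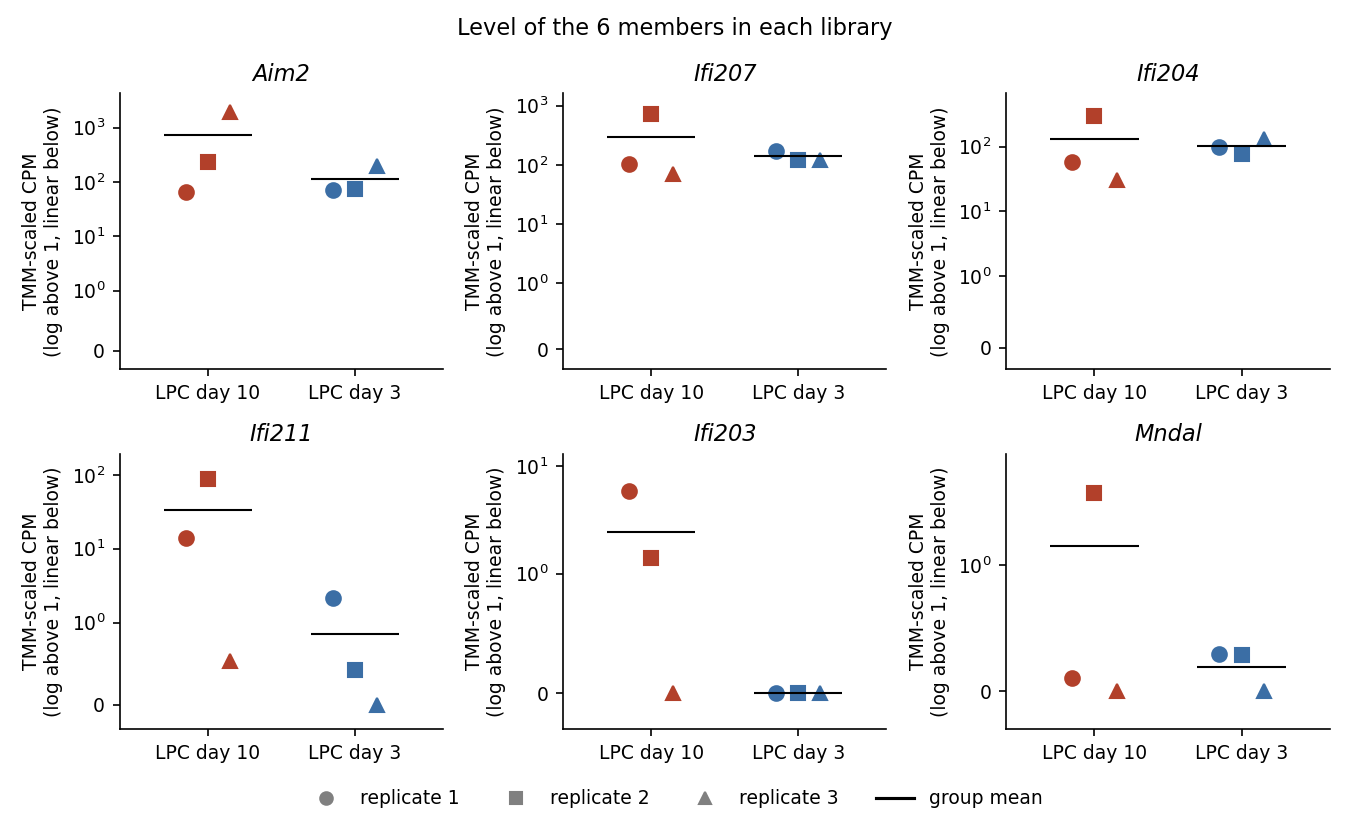
Level of Aim2, Ifi207, Ifi204, Ifi211, Ifi203 and Mndal as TMM-scaled CPM (vertical axis, logarithmic above 1 and linear below) in the 3 LPC day 10 libraries (red, left) and the 3 LPC day 3 libraries (blue, right), with symbols for the replicate numbers and a line at each group mean. Aim2 reached 1923 CPM in LPC day 10 replicate 3, while Ifi207, Ifi204, Ifi211 and Mndal were highest in LPC day 10 replicate 2.

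Aim2, the sensor of cytosolic DNA, had 64.7, 228 and 1923 CPM in the late lesions of LPC day 10, against 71.9, 74.9 and 192 CPM in the early ones of LPC day 3. The groups overlapped. LPC day 10 replicate 1 lay below all day 3 libraries with TMM scaling, but with library-size scaling it was at 93.2 CPM, above LPC day 3 replicates 1 and 2 (80.5 and 75.1 CPM). LPC day 10 replicate 2 was 1.18-fold above the highest day 3 library. In LPC day 10 replicate 3 Aim2 was 8.45-fold above the next library, and 357 (3.39%) of the genes tested stood at least 8-fold above each other library there. With library-size scaling that distance was 5.18-fold (1214 CPM against at most 234).

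The group means of Aim2 were 738 ± 1029 CPM at day 10 and 113 ± 68.7 CPM at day 3 (SD, n = 3 each). The log2 fold change was 2.71 ± 0.92 (SE, n = 3 per group, edgeR adjusted p = 0.352). Without LPC day 10 replicate 3 it was 0.35 ± 0.68 (edgeR adjusted p = 1.00), so the size of the difference rested on that library. Aim2 passed the test when LPC day 10 replicate 1 was left out (3.24 ± 0.79, edgeR adjusted p = 0.00491) or replicate 2 (3.13 ± 0.87, edgeR adjusted p = 0.0258). In those fits 208 (1.82%) and 169 (1.5%) of the genes tested were called higher. Of the 3452 windows of 100 bases, the length of a read, in the transcripts of Aim2, 0 occurred in a transcript of another gene.

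Ifi207, a further p200 gene of the mouse, had 105, 727 and 70.5 CPM in the late lesions of LPC day 10, against 172, 123 and 121 CPM in the early ones of LPC day 3. LPC day 10 replicate 2 was 4.23-fold above the highest day 3 library, while the other day 10 libraries were below all day 3 libraries. With library-size scaling replicate 3 was still below them, but LPC day 10 replicate 1, at 151.5 CPM, was above LPC day 3 replicates 2 and 3 (123 and 108 CPM). The means were 301 ± 369 CPM at day 10 and 138 ± 29.1 CPM at day 3 (SD, n = 3 each), with a log2 fold change of 1.12 ± 0.87 (SE, edgeR adjusted p = 0.999). With LPC day 10 replicate 2 left out the value was −0.67, and with replicate 3 left out it was 1.57 ± 0.64 (edgeR adjusted p = 0.797). Without replicate 3, 1 of 12173 genes (0.00821%) was called higher. Of its 100-base windows 0.790% occurred in another gene.

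Ifi204, which encodes p204, a nuclear protein implicated in mouse macrophages in differentiation and in the interferon response to DNA, had the same order among the day 10 libraries as Ifi207. It had 57.3, 304 and 30.7 CPM in the late lesions of LPC day 10, against 101, 77.4 and 134 CPM in the early ones of LPC day 3. With TMM scaling 1 day 10 library lay above and 2 lay below all day 3 libraries. With library-size scaling LPC day 10 replicate 1, at 82.5 CPM, was above LPC day 3 replicate 2 (77.6 CPM), and replicate 3 alone lay below them all. The means were 131 ± 151 CPM at day 10 and 104 ± 28.2 CPM at day 3 (SD, n = 3 each), and the log2 fold change was 0.33 ± 0.93 (SE, edgeR adjusted p = 0.999). Its sign was not stable: it was −0.12 in limma-voom and −1.26 without LPC day 10 replicate 2. Of the 100-base windows of Ifi204, 10.7% occurred in another gene, most of them in Ifi211.

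Ratios of counts within a library do not depend on its scaling. Ifi207 had 1.84, 2.39 and 2.30 counts per Ifi204 count in the late lesions of LPC day 10, against 1.71, 1.58 and 0.902 in the early ones of LPC day 3. The ratio ran from 0.902 to 2.39, and in the library that stood apart it lay within that range. Aim2 had 1.13, 0.750 and 62.7 counts per Ifi204 count in the late lesions of LPC day 10, against 0.714, 0.967 and 1.44 in the early ones of LPC day 3. Outside LPC day 10 replicate 3 the Aim2 ratio therefore ran from 0.714 to 1.44.

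Ifi211, a close relative of Ifi205, was nearly absent from the early lesion. It had 13.8, 87.2 and 0.538 CPM (132, 810 and 2 counts) in the late lesions of LPC day 10, against 2.16, 0.427 and 0 CPM (22, 3 and 0 counts) in the early ones of LPC day 3. LPC day 10 replicates 1 and 2 were above all day 3 libraries, as they were for 1137 (10.8%) of the genes tested, and replicate 3 lay among the day 3 libraries. The log2 fold change was 5.25 ± 1.95 (SE, n = 3 per group, edgeR adjusted p = 0.479). Leaving out LPC day 10 replicate 3 gave 5.81 ± 1.59 (edgeR adjusted p = 0.604). It ran from 2.66 to 7.24 over all alternatives and was called in none of them (lowest adjusted p 0.0887, with DESeq2). Of the 100-base windows of Ifi211, 56.9% occurred in another gene, 37.2% in Ifi205. Ifi205 had 22, 374 and 0 counts at day 10 and 0 in all day 3 libraries, and the sources used here do not say how reads that match both were assigned. The value of Ifi211 is therefore uncertain as that of a single gene.

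Ifi203, which encodes a nuclear p200 protein, was detected in day 10 libraries and in no day 3 library. It had 56, 13 and 0 counts (5.86, 1.40 and 0 CPM) in the late lesions of LPC day 10, and 0 counts in all LPC day 3 libraries. Scaled to the summed library sizes, the 69 counts at day 10 were 26.0-fold above the 3 counts that a total of 0 at day 3 allows. That ratio covers counting error only and not the spread between mice. Of the 69 counts, 56 were in LPC day 10 replicate 1. Ifi203 failed the filter on low counts, and a fit with no such filter gave an adjusted p of 0.663 (edgeR, n = 3 per group). Of its 100-base windows 2.84% occurred in another gene.

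Mndal, related to the human myeloid nuclear differentiation antigen, was close to the detection limit. It had 1, 40 and 0 counts in the late lesions of LPC day 10, against 3, 2 and 0 counts in the early ones of LPC day 3. LPC day 10 replicate 2 alone (4.31 CPM) was above the limit that a count of 0 allows there (0.323 CPM). In a fit with no filter its adjusted p was 0.713 (edgeR, n = 3 per group). Of its 100-base windows 6.38% occurred in another gene.

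**Figure D2:**
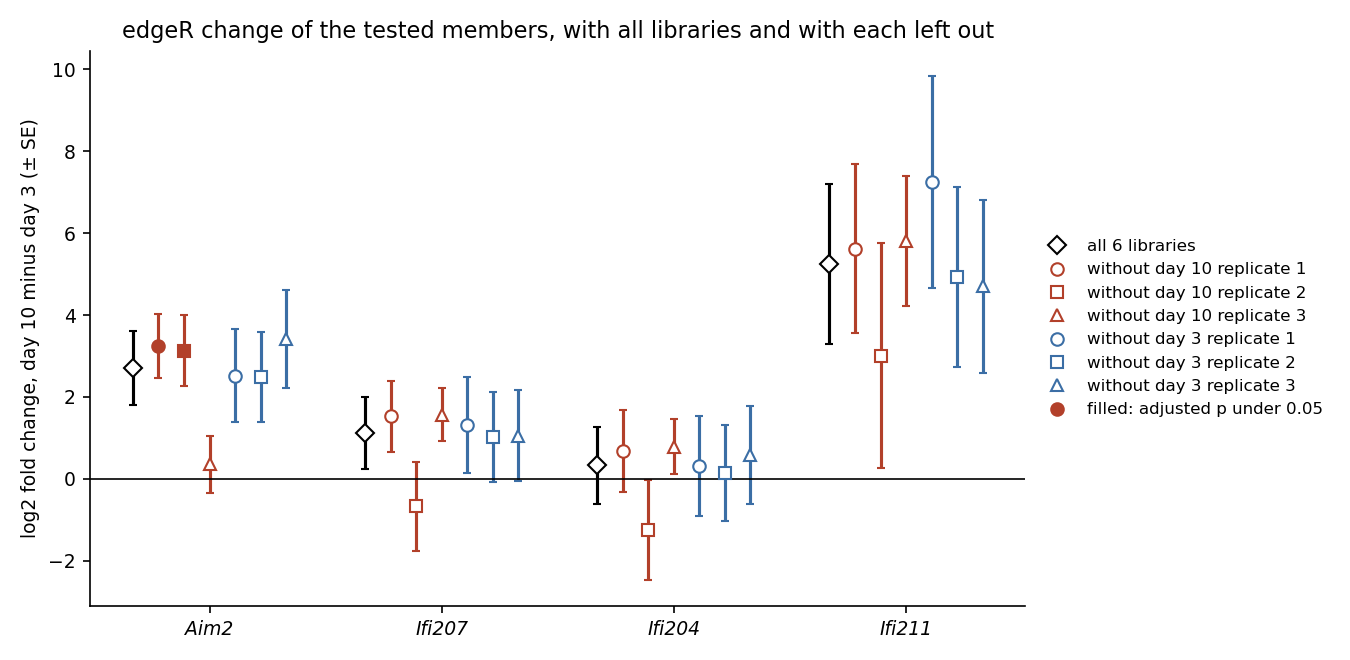
Log2 fold change of day 10 minus day 3 (vertical axis, edgeR, bars are SE) for the 4 tested genes with all 6 libraries (diamonds) and with each library left out (red, day 10 library left out; blue, day 3 library left out), filled where the adjusted p was under 0.05. Aim2 was 0.35 without LPC day 10 replicate 3 and was called without day 10 replicate 1 or 2, Ifi207 and Ifi204 lay below 0 only without LPC day 10 replicate 2, and Ifi211 was above 0 in all fits shown.

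The authors' deposited table gives its own fold changes, as day 3 minus day 10 with unadjusted p-values, so that a negative value means a higher level at day 10. In the authors' deposited table Aim2 had −1.33 (p = 0.279), Ifi207 −0.44 (p = 0.633) and Ifi204 0.23 (p = 0.797). In the same deposited table of the authors Ifi211 had −4.69 (p = 0.0461), Ifi203 −3.90 (p = 0.0288) and Mndal −1.03 (p = 0.525). Ifi204 thus had the opposite sign to the edgeR value, and the direction of the other 3 tested genes was the same.

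Levels between genes were compared on the authors' FPKM, which divides by gene length. Since its columns carry the time point and no replicate number, FPKM values are listed from low to high. Aim2 had 26.6, 67.0 and 347 FPKM at day 10 and 21.4, 23.0 and 49.5 FPKM at day 3. Ifi207 had 12.8, 43.5 and 215 FPKM at day 10 and 31.2, 35.3 and 55.3 FPKM at day 3, and Ifi204 had 5.44, 23.2 and 87.8 FPKM at day 10 and 21.8, 31.7 and 33.7 FPKM at day 3. Read within each column, Ifi207 was above Ifi204 in 3 of 3 at day 10 and 2 of 3 at day 3. Aim2 was above Ifi207 in 1 of 3 columns at each time point. Ifi211 followed with 0.190, 11.1 and 50.3 FPKM at day 10 and 0, 0.240 and 1.36 FPKM at day 3. Ifi203 reached at most 1.26 FPKM at day 10 and was listed at 0 at day 3, and Mndal reached at most 1.29 FPKM at day 10 and 0.0958 at day 3.

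In 1 of the day 10 FPKM columns Aim2 made up 95.0% of the summed FPKM of the 6 genes, against 15.9% and 25.2% in the other day 10 columns and 20.6% to 43.2% at day 3. In that column the sum was 365 FPKM and Ifi207 and Ifi204 contributed 3.50% and 1.49%. The highest sum, 422 FPKM, stood in another day 10 column and was made up of Ifi207 (51.0%), Ifi204 (20.8%), Aim2 (15.9%) and Ifi211 (11.9%). The remaining day 10 column summed to 106 FPKM and the day 3 columns to 78.9 to 114 FPKM. Ifi211 made up 0.0521% to 11.9% at day 10 and 0 to 1.22% at day 3.

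**Figure D3:**
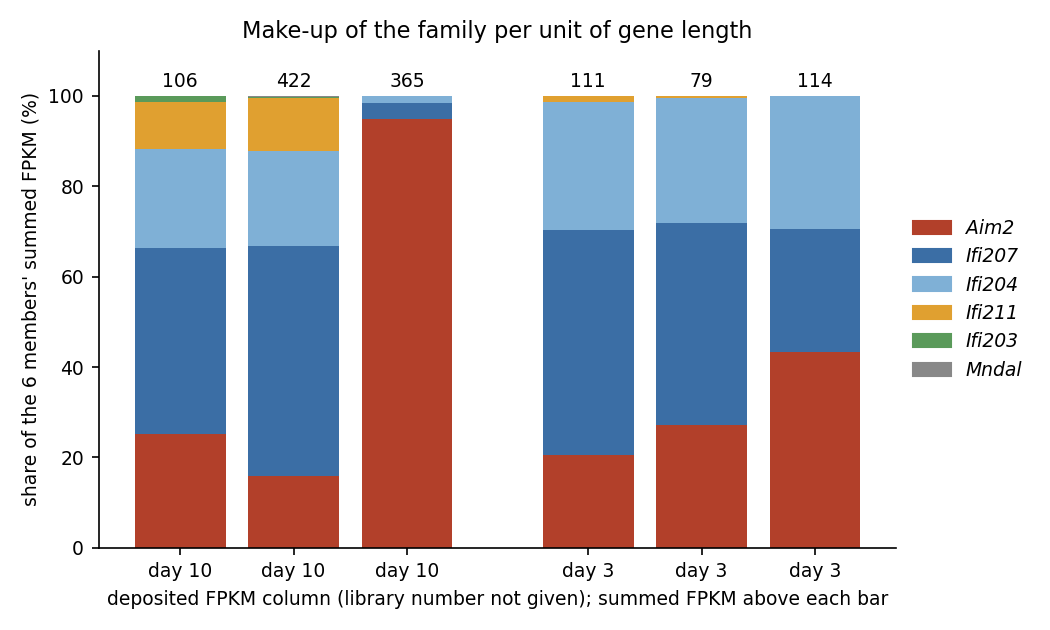
Share of each gene in the summed FPKM of the 6 genes (vertical axis, %) in the 3 deposited day 10 columns (left) and the 3 day 3 columns (right), with the summed FPKM above each bar. Aim2 made up 95.0% in 1 day 10 column, and Ifi211 made up 10.5% and 11.9% in the other 2 day 10 columns and at most 1.22% at day 3.

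Of the p200 genes outside the 6, those with a row in the count table were Ifi205, Ifi206, Ifi208, Ifi209, Ifi213 and Ifi214, and 0 of the 4 tested were called in edgeR (adjusted p = 0.999 for each). Ifi209 had 12.98, 129 and 8.88 CPM in the late lesions of LPC day 10, against 14.8, 13.4 and 28.7 CPM in the early ones of LPC day 3. Its level was highest in LPC day 10 replicate 2, as for Ifi207 and Ifi204. Its promoter window carried the altered form of the core, and Ifi204 had no window. A link between these letters and the levels was not tested. Ifi213 had 59.3, 144 and 1.34 CPM at day 10, next to 7.37, 1.42 and 87.1 CPM at day 3. Ifi206 had 46.2, 60.5 and 1.08 CPM at day 10, next to 5.11, 134 and 47.3 CPM at day 3, and Ifi208 had 2.30, 22.6 and 0.269 CPM at day 10, next to 43.7, 0.712 and 0 CPM at day 3. Ifi214 had 12, 156 and 1 counts at day 10 and 8, 6 and 1 counts at day 3.

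Over the whole cluster, 8 of the 12 p200 genes with counts peaked in LPC day 10 replicate 2. Of the 8 that were tested, 5 did, against 11.4% of all genes tested. Several share 100-base windows, with 37.2% of those of Ifi211 also in Ifi205 and 16.9% of those of Ifi209 in Ifi214. Their levels are therefore not independent, and this count is not read as a trait of the family. In 11 of the 12, Aim2 being the exception, LPC day 10 replicate 3 was below both other day 10 libraries. Ifi203, Mndal and Ifi205 had 0 counts in it. That library was below each of the other libraries, a stricter condition, for 4365 (41.4%) of all genes tested. The count of 11 is therefore not read as a trait of the family. Monocyte markers, of which 7 of 10 had a row, summed to 199, 78.8 and 18.6 CPM in the late lesions of LPC day 10, against 115, 16.7 and 164 CPM in the early ones of LPC day 3. Ccr2, the chemokine receptor of blood monocytes, had 1.26, 5.60 and 0 CPM at day 10, next to 1.28, 0 and 0.241 CPM at day 3. Its highest value was in LPC day 10 replicate 2, whereas the sum of the list was highest in LPC day 10 replicate 1. Border-associated macrophage markers, of which 7 of 8 had a row, summed to 189, 56.5 and 1013 CPM at day 10, next to 354, 358 and 503 CPM at day 3. Within this list Mrc1, the mannose receptor, had the order of the sum among the day 10 libraries, with 5.55, 3.87 and 6.19 CPM. Its day 10 values were all below those of day 3 (19.8, 93.2 and 75.9 CPM), whereas the sum was highest in LPC day 10 replicate 3. Dendritic cell markers, all 9 with a row, summed to 338, 593 and 1994 CPM at day 10, next to 445, 821 and 845 CPM at day 3. Most of that sum was Siglech, which microglia also express, with 327, 589 and 1767 CPM at day 10, and Clec10a, Ccr7 and Cd209a were at 0. Endothelial markers, of which 6 of 7 had a row and Cldn5 was at 0, summed to 67.6, 94.6 and 16.9 CPM at day 10, next to 25.7, 4.13 and 23.4 CPM at day 3. The day 10 libraries thus had the order of Aim2 in the dendritic cell list and that of Ifi207 in the endothelial list. The part of any of these cells in the p200 levels was not tested.

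**Figure D4:**
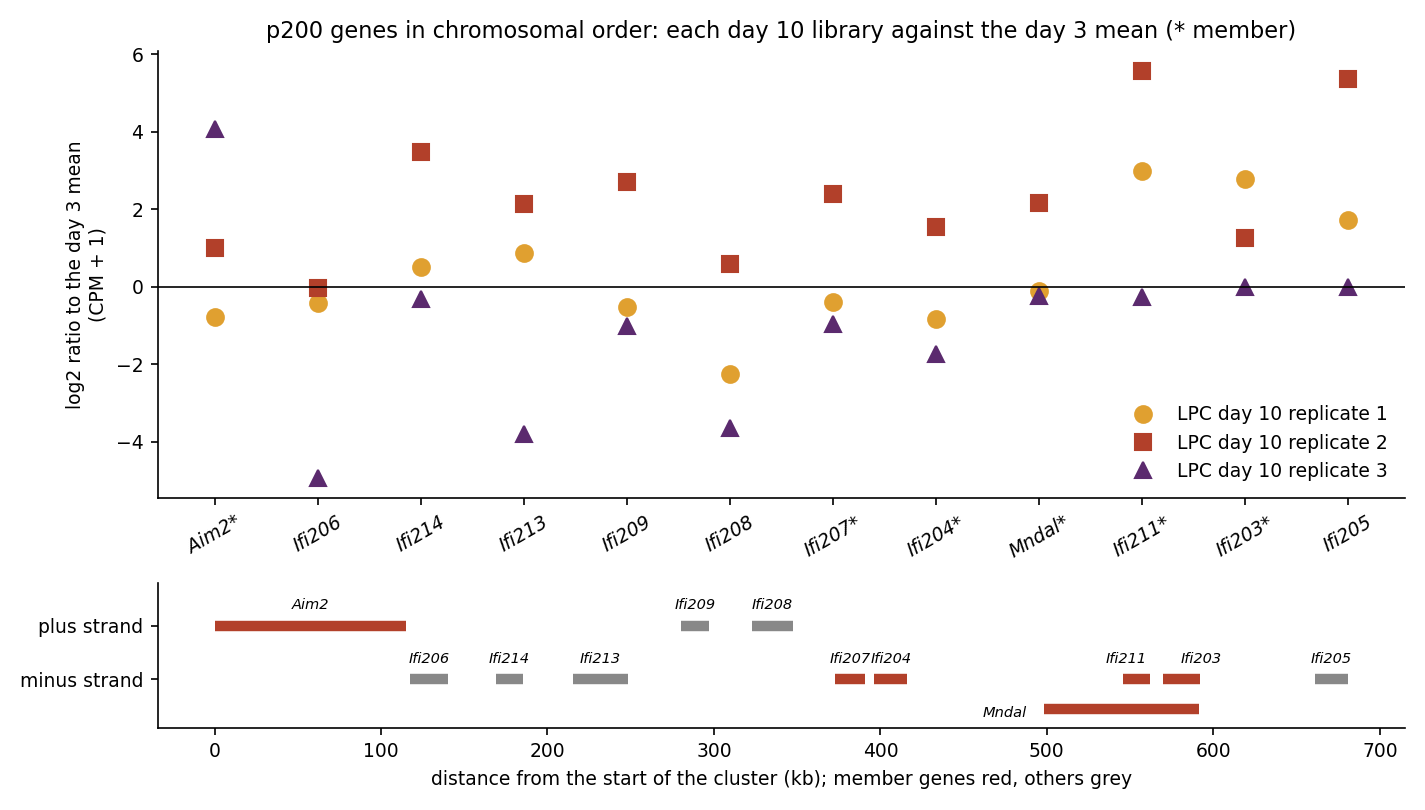
Upper panel, log2 ratio of each LPC day 10 library to the LPC day 3 mean (CPM plus 1) for the 12 p200 genes in chromosomal order, with an asterisk on the 6 followed here; lower panel, their extent as distance in kb from the start of the cluster, by strand. LPC day 10 replicate 3 was at 4.08 for Aim2 and at or below 0 for the other 11 genes, and LPC day 10 replicate 2 was at 5.57 for Ifi211.

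None of the genes that act with AIM2 in the inflammasome was called. Of 15 listed genes 13 were tested, 7 positive and 6 negative in sign, with a median log2 fold change of 0.22 against −0.00 for all genes tested, and 0 passed in edgeR, where 0 had an unadjusted p under 0.05. Casp1, the protease that AIM2 activates, had 13.2, 66.1 and 58.6 CPM at day 10, next to 9.53, 23.1 and 10.0 CPM at day 3 (edgeR log2 fold change 1.69 ± 1.29, adjusted p = 0.999). Casp4, a protease of the related non-canonical pathway, had a log2 fold change of 1.41. Pycard, which encodes the adaptor ASC, had 68.0, 163 and 82.3 CPM at day 10, next to 101, 71.3 and 95.7 CPM at day 3, and edgeR gave 0.22 for it on the log2 scale. Gsdmd, which encodes the pore-forming gasdermin D, had a log2 fold change of 0.64, Il18 of −0.05 and Il1b of −0.60, with Il1b at most 7.85 CPM at day 10 and 15.1 CPM at day 3.

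Genes of cytosolic DNA sensing and clearance, the other route by which DNA reaches the interferon response, had 9 tested members of 16 listed symbols, 5 positive and 4 negative, a median of 0.02 and 0 calls. Mb21d1, which encodes the DNA sensor cGAS, had 44.1, 69.1 and 169 CPM at day 10, next to 22.8, 94.5 and 61.3 CPM at day 3 (log2 fold change 0.66). Tmem173, which encodes STING, had 58.8, 69.0 and 169 CPM at day 10, next to 160.2, 112 and 193 CPM at day 3 (−0.65). The members of smallest p were Enpp1, an enzyme that degrades the product of cGAS, with 1.19, and Dnase2a, a lysosomal DNase, with 1.68 (edgeR adjusted p = 0.999 for each).

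Of the genes upstream of p200 induction, 14 of 15 listed interferon receptors, kinases and factors were tested, 10 positive and 4 negative, with a median of 0.37 and 0 calls. Tyk2 had a log2 fold change of 2.10, with 385 CPM in LPC day 10 replicate 3. Irf7 had 3.47, with 33.4, 13.9 and 0.269 CPM at day 10 and at most 2.65 CPM at day 3. The receptor genes Ifnar1 and Ifnar2 had 0.79 and −0.70. Of 43 interferon-stimulated genes outside the p200 family, all tested, 35 were positive and 8 negative, where 49.9% of all genes tested were positive. Their median was 1.14, against −0.00 for all genes tested, and 0 were called. In 28 of these 43 the highest level was in LPC day 10 replicate 2 and in 3 it was in LPC day 10 replicate 3, against 11.4% and 25.6% of all genes tested. Iigp1, an interferon-inducible GTPase, had 20.0, 83.3 and 0.269 CPM at day 10, next to 0.196, 3.84 and 0.483 CPM at day 3, an order of the day 10 libraries like that of Ifi207. Ddx58, the RNA sensor RIG-I, had 87.7, 130.5 and 600.0 CPM at day 10, an order like that of Aim2, and 64.9, 48.0 and 84.9 CPM at day 3.

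By Pearson's r of log2 CPM over the 6 libraries, among 7845 genes, the profiles nearest to Aim2 were Akr1b10 and Ttc3 (r = 0.997 and 0.996), and 255 genes had r of at least 0.9. Nearest to Ifi207 were Abcd2 and Cwf19l2 (0.968 and 0.962, 12 genes at or above 0.9). Nearest to Ifi204 were Vps29 and Zrsr1 (0.960 and 0.955, 44 genes), and nearest to Ifi211 were D3Ertd751e and Slc25a20 (0.986 and 0.971, 36 genes). With 6 libraries and this many genes such values describe a ranking and carry no test. None of these 8 nearest genes is a p200 gene. The 6 members were left out of the genes compared, so the ranking cannot show whether they resembled each other.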

How the data were processed

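Per the labels' protocols, cDNA was amplified with a NuGEN Ovation kit and read as pairs of 100 bases. The submitters' processing notes name the GRCm38 build, limma 3.30.8, edgeR 3.16.5, the aligner STAR 2.5.2a and R 3.3.2. No counting program, annotation release or strand setting is given in the sources used here. The authors deposited raw counts per Ensembl gene, FPKM per gene, normalized log2 values and a table of log2 fold changes with p-values. FPKM columns name the time point only. The authors' fold changes followed day 3 minus day 10 of their log2 values (r = 0.996 across genes).

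Members were matched by the symbol of the FPKM table and joined by Ensembl ID. R 4.3.3 ran the quasi-likelihood test of edgeR 4.0.16 on the counts, with time point as the only term, TMM factors, genes kept by filterByExpr (minimum count 10) and Benjamini-Hochberg adjustment over 10535 genes at 0.05. The SE was derived from the F statistic and the log2 fold change. Log2 CPM for profiles used a prior count of 2. A count of 0 allows up to 3 counts, which covers counting error only, since amplified reads are not independent molecules. The procedure was also run on simulated counts with the mean levels, library sizes and dispersions of these data. No simulated library was made to stand apart as LPC day 10 replicate 3 did, and no result here rests on those counts. Shared 100-base windows came from GENCODE M21 transcripts, promoters from RefSeq (Python 3.11.15).

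The members, lists and several thresholds were chosen with earlier results of these data known. Named genes were the 6 members, other p200 genes with counts, and the 2 genes of smallest p of each list. A fixed set of inflammasome and interferon genes and the 2 nearest profiles per tested member were also named. The profiles had a mean CPM of at least 5, with members and Gm and Rik symbols left out. Ccr2, Mrc1, Siglech and the markers at 0 were named after their values were seen. Some genes that this rule names are not reported here. The alternatives used scaling by RLE, by upper quartile or by library size, other low-count filters, DESeq2 1.42.0, limma 3.58.1 (voom, also with weights for sample quality, and trend on FPKM with 1 or 0.1 added before log2), a replicate block, and each library left out. Member levels by library-size scaling and the 8-fold count were chosen after seeing the data. The normalized log2 values served only to check the sign of the authors' table.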

Additional observations from a re-analysis of the deposited data

How the results depend on the processing

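None of the 6 genes was called in 12 alternatives that kept all libraries, and Aim2 alone was called, in 2 of the 6 fits that left out 1 library. Aim2 kept a positive log2 fold change throughout, from 0.90 to 3.29 with all libraries and from 0.35 to 3.41 with 1 left out. Ifi211 stayed positive in all of them (2.66 to 7.24), and Ifi207 was positive with all libraries (0.26 to 1.31) and ran from −0.67 to 1.57 with 1 left out. Ifi204 was negative in limma-voom (−0.12), in limma-trend on log2 of FPKM plus 1 (−0.30, and −0.30 for genes with a mean FPKM of at least 1) or plus 0.1 (−0.35) and with the replicate block (−0.40). It ran from −1.26 to 0.78 with 1 library left out. The cause was not tested.

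Over all genes 12 were called higher and 0 lower. With no low-count filter 113 and 5 were called, with a filter of 1 CPM in 3 libraries 20 and 1, with DESeq2 72 and 30, with limma-voom 0 and 1 and with sample quality weights 2 and 1. With RLE scaling, library-size scaling, the 3 limma-trend fits on FPKM and the replicate block 0 were called higher (831, 423, 280, 290, 314 and 228 genes had an unadjusted p under 0.05). Leaving out 1 library gave 1 to 208 higher and 0 to 4 lower, and 0 to 1 of the 6 genes called. RLE scaling moved the median log2 fold change of all genes to 0.13 from −0.00. No pairing of the libraries by replicate number was seen. Deviations of same-numbered libraries from their group means correlated across genes at 0.0733, −0.0351 and 0.00727. Not every library correlated best with its own number. With 3 libraries per group this check cannot exclude a pairing. Ifi203 and Mndal had 0 to 56 counts per library and failed the low-count filter of the reported fit. In alternatives that tested them with all libraries, neither was called. Ifi203 was at 7.30 with no filter, 6.72 with DESeq2 (adjusted p = 0.228) and 0.49 and 1.81 on FPKM plus 1 and plus 0.1, and Mndal was at 2.84, 2.90, 0.34 and 0.83 in the same fits.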
